A study of Mus musculus with 12 samples.

Results

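The 10 bone formation genes described here, Runx2, Sp7, Dlx5, Alpl, Phex, Spp1, Ibsp, Dmp1, Bglap and Sost, were taken by name from a table of 37750 gene rows. All 10 were found, each as 1 row, and none shared its row with another gene. RNA had been sequenced from 8 liposarcomas (LPS) taken from mice 9 to 12 months of age and from 4 samples of white adipose tissue (WAT) taken from mice 3 weeks of age. Every animal carried Ad/NICD, an active Notch1 intracellular domain in adipocytes, on a 129 x C57BL/6 strain background, so the WAT too is transgenic tissue. The promoter that drives the transgene is not given in the labels, nor is it said whether each tumour came from a different mouse. The libraries are called biological replicates, and p-values set a difference against the spread between them. Tissue and age change together between the groups and cannot be told apart. In bulk tissue, fewer cells of a type and less RNA per cell cannot be told apart either.

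Bone is laid down by osteoblasts, which secrete a collagen matrix and then mineralise it, and some of which become osteocytes buried in that matrix. RUNX2 commits cells to this lineage and SP7 (osterix) acts after it, while DLX5 is a homeodomain factor of the same programme. Tissue-nonspecific alkaline phosphatase, encoded by Alpl, removes the mineralisation inhibitor pyrophosphate, and PHEX is an endopeptidase of osteoblasts and osteocytes that acts on phosphate balance. Osteopontin (Spp1), bone sialoprotein (Ibsp) and dentin matrix protein (Dmp1) are acidic matrix proteins encoded side by side, osteocalcin (Bglap) marks mature osteoblasts, and sclerostin (Sost) is an inhibitor of WNT signalling made by osteocytes. White fat is not a bone-forming tissue, and mesenchymal progenitors can give rise to adipocytes and to osteoblasts.

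RUNX proteins recognise the letters ACCACA, so the 250 bases before each annotated start were searched for ACCACA and, on the other strand, TGTGGT. RefSeq promoter windows (build GRCm38.p6) were used for 8 of the 10 genes, 11 windows in all; those of Sp7 and Dlx5 were not used here. The motif lay in 4 windows of 4 genes, against 14.0% of the 32851 windows of all genes. The 4 windows are shown because they share the motif while their genes differ in level: Runx2, Spp1 and Dmp1 had values above 0.5 FPKM in every tumour, and Bglap was listed at 0 in 5 of 8. Each is printed 5′ to 3′ along the strand of its gene, and the capitals mark the motif.
Runx2, chr17:44814628-44814877, minus strand: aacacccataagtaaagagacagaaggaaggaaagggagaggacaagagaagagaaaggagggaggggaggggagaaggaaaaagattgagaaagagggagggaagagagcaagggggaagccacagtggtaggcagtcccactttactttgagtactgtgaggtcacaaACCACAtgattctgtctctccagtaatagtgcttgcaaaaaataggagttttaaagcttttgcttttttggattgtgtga
Spp1, chr5:104434861-104435110, plus strand: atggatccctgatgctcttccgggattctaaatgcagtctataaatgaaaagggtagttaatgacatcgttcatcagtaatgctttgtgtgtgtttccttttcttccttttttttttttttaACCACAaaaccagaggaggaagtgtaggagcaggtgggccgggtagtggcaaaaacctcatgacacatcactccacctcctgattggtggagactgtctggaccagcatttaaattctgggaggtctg
Dmp1, chr5:104202367-104202616, plus strand: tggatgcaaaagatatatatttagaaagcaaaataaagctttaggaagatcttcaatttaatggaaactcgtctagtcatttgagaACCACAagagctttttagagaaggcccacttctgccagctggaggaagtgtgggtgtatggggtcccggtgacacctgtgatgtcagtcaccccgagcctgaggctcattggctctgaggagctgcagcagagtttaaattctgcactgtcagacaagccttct
Bglap, chr3:88384467-88384716, minus strand: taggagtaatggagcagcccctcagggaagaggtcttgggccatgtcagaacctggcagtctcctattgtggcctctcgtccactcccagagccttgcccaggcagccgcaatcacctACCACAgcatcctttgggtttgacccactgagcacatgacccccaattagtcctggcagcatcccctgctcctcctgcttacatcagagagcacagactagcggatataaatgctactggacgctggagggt
The motif began 80 bases before the RefSeq start of Runx2, 128 before that of Spp1, 164 before that of Dmp1 and 132 before that of Bglap. The recognition letters of RBPJ, the DNA-binding partner of the Notch intracellular domain (TGGGAA, or TTCCCA on the other strand), were in 0 of the 11 windows and in 21.6% of all windows. The letters CACGTG, an E-box that HES and HEY proteins, products of Notch target genes, can bind and that read the same on both strands, were in 1 of the 11 windows, the other window of Dmp1 (chr5:104197325-104197574). They lay there 249 and 44 bases before the start, and were in 6.02% of all windows. A match is a string of letters and no evidence of binding, and its absence covers these windows only.

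Levels are in FPKM, the number of fragments scaled by transcript length and by the mapped fragments of the library, as the authors deposited them. Fragment totals are not in the table, and FPKM sums ranged over 771665 to 923028 in LPS other than LPS 5, which reached 996090, and over 794774 to 917592 in WAT. LPS 5 stood apart: the satellite-like row Gm10800 took 361556 FPKM there and at most 3340 in any other library, and its median ratio to the other libraries was 0.814. From the lowest non-zero values, 1 fragment of a 2 kb transcript was worth about 0.0470 FPKM in LPS 1, the shallowest library, and 0.0181 in WAT 1, the deepest. Notch1 lay between 44.2 and 84.6 FPKM in LPS and between 24.5 and 39.5 in WAT. Adipocyte markers were lower in LPS in 8 of 8 genes, with a summed level of 7.43 to 48.2 FPKM in LPS against 4953 to 5971 in WAT. Pericyte markers were higher in 8 of 8, with 3595 to 7917 FPKM in LPS against 195 to 220 in WAT. Skeletal muscle markers summed to 1.42 to 579 FPKM in LPS and 28.3 to 2359 in WAT, with WAT 1 at 2359 and WAT 4 at 2150. Endothelial markers summed to 233 to 394 FPKM in LPS and 185 to 239 in WAT, with 2 genes higher, 4 lower and 1 not called of 7 tested.

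The bone formation genes did not move as a set. Sp7, Dlx5 and Dmp1 rose in LPS, Spp1 was higher in every LPS library without passing the test, Runx2 and Alpl overlapped between the groups, and Phex, Ibsp, Bglap and Sost stayed low in nearly every library. Differences were tested with limma on log2(FPKM + 1) over 14821 rows, those that reached 1 FPKM in 4 or more libraries, with Benjamini-Hochberg adjustment and a threshold of 0.05. Of the 10 genes, 6 passed that filter, and 4 of these (Sp7, Dlx5, Spp1, Dmp1) passed it through the LPS libraries alone, so their higher level in LPS was partly built into passing. The test called 3 genes higher and 0 lower, while 46% of all rows tested were called, 18.9% higher and 27% lower. Separation of the groups, with every LPS library above every WAT library, was seen in 4 genes and in 11.8% of rows tested. The opposite separation was seen in none of the 10 genes and in 20.9% of rows tested.

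**Figure D1:**
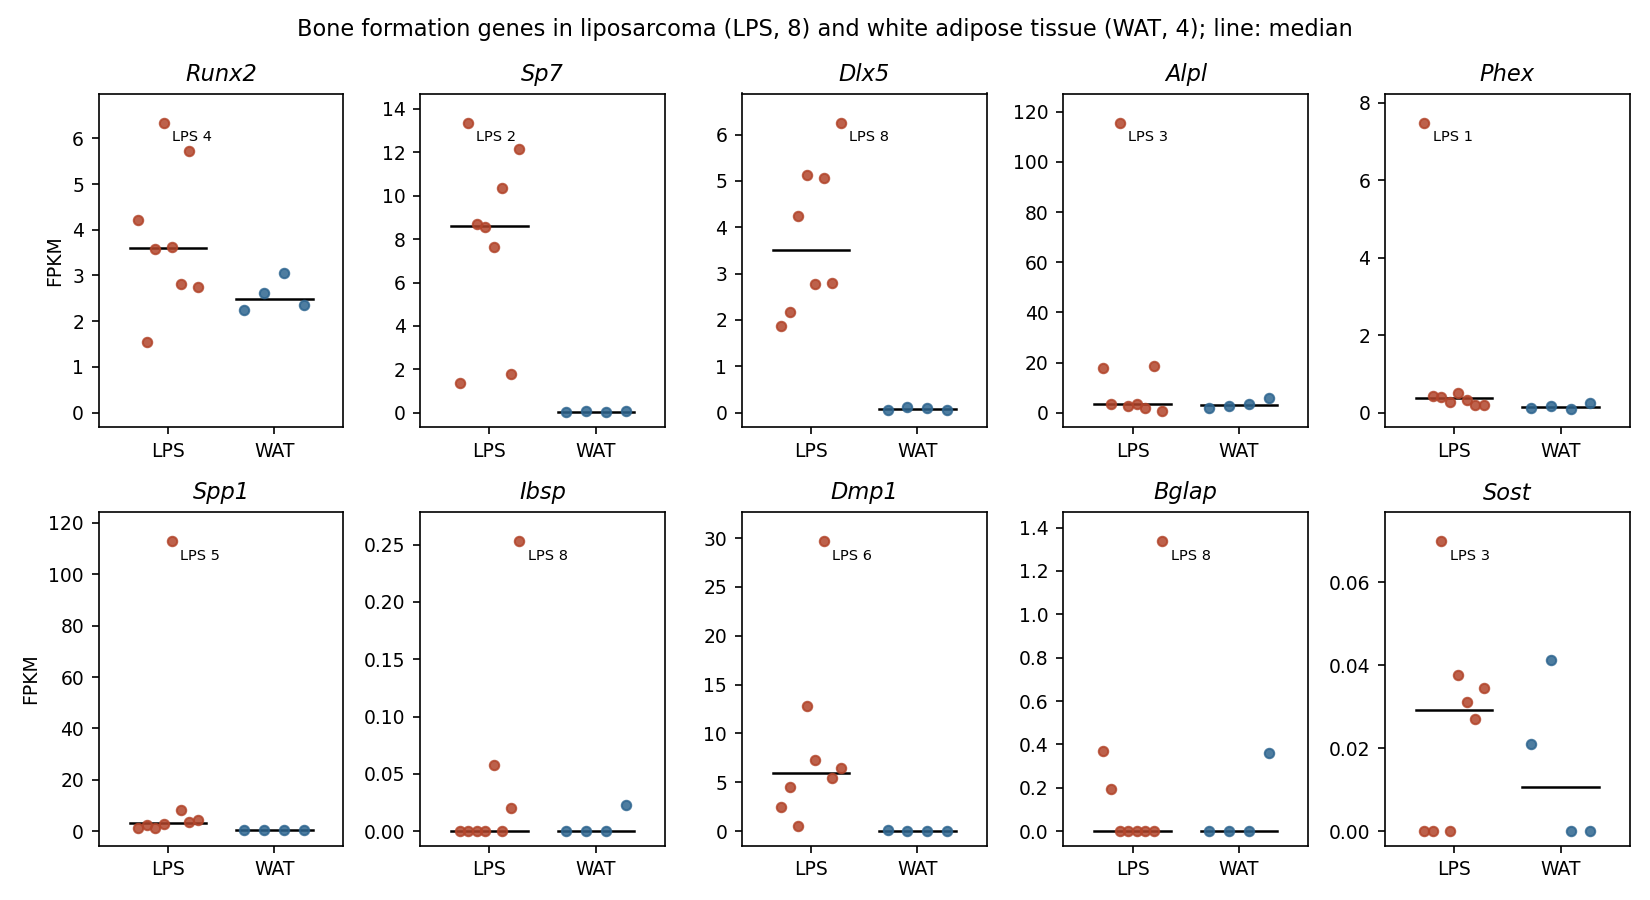
Level of each bone formation gene in FPKM (vertical axes, one scale per panel) in the 8 LPS and 4 WAT libraries; each point is a library, the line is the group median, and the highest LPS library is named. Sp7, Dlx5, Spp1 and Dmp1 show no overlap between the groups, and single tumours carry the top of Alpl (115.7), Phex (7.49), Spp1 (113.0) and Dmp1 (29.7).

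Among the transcription factors, Runx2 was present in both tissues, whereas Sp7 and Dlx5 were near absent in WAT. Runx2 (chr17:44495987-45119290, minus strand; ENSMUSG00000039153.16) had 4.21, 1.54, 3.57, 6.34, 3.62, 2.82, 5.72 and 2.74 FPKM in LPS 1 to LPS 8, against 2.25, 2.61, 3.05 and 2.35 FPKM in WAT 1 to WAT 4. Its groups overlapped: 5 of 8 LPS libraries lay above the highest WAT library, and LPS 2 lay below the lowest. Runx2 averaged 3.82 ± 1.59 FPKM in LPS (SD, n = 8) and 2.57 ± 0.354 FPKM in WAT (SD, n = 4), a log2 difference of 0.37 ± 0.25 (SE) that did not pass the test (limma, adjusted p = 0.239). Transcripts of Supt3, Runx2os1, Runx2os2 and Runx2os3 overlap this locus on the opposite strand, and n-R5s27 on the same strand. The libraries were made with a stranded kit, but the sources used here do not say whether counting used the strand. The row also runs past the annotated 5′ end of Runx2 (44814797 in GENCODE M21). The Runx2 promoter window shown above therefore lies inside the span of the row. That window was set by a RefSeq start at 44814627. By the GENCODE end, part of the window, with its motif, lies inside the gene and not before it.

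Sp7 (chr15:102356609-102366325, minus strand) had 1.36, 13.4, 8.68, 8.57, 7.64, 10.4, 1.77 and 12.2 FPKM in LPS 1 to LPS 8, against 0.0270, 0.0766, 0.0227 and 0.0622 FPKM in WAT 1 to WAT 4. The groups did not overlap, and LPS 1 and LPS 7 were far below the other tumours. Sp7 rose by 2.86 ± 0.47 on the log2(FPKM + 1) scale (SE; limma, adjusted p = 0.000233), with 7.99 ± 4.40 FPKM in LPS (SD, n = 8) and 0.0471 ± 0.0265 FPKM in WAT (SD, n = 4). The WAT values equal about 1.16 to 3.55 fragments per library, so no fold is given, and the pseudocount sets much of the size of the log2 difference. By mean level Sp7 stood above 71.2% of rows with a level above 0 in LPS and above 12.1% of them in WAT.

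Dlx5 (chr6:6877805-6882085, minus strand) had 1.88, 2.18, 4.24, 5.13, 2.78, 5.07, 2.80 and 6.26 FPKM in LPS 1 to LPS 8, against 0.0673, 0.129, 0.110 and 0.0496 FPKM in WAT 1 to WAT 4. Again the groups were apart, with less spread among tumours than Sp7 showed. Dlx5 averaged 3.79 ± 1.60 FPKM in LPS (SD, n = 8) and 0.0890 ± 0.0368 FPKM in WAT (SD, n = 4), and rose by 2.07 ± 0.24 on the log2 scale (SE; limma, adjusted p = 1.43e-05). Its neighbour Dlx6, a related homeodomain gene that did not pass the filter, ranged over 0.0417 to 2.74 FPKM in LPS and was listed at 0 in all 4 WAT libraries. With no filter, Dlx6 differed by 0.78 ± 0.29 (SE) and was not called (limma, adjusted p = 0.0675). Dlx5 and Dlx6 thus had a value above 0 in every tumour, with Dlx6 highest in LPS 4 and Dlx5 in LPS 8. The Dlx6 value in LPS 1, 0.0417 FPKM, was near that of 1 fragment of a 2 kb transcript there, 0.0470. Another related gene, Dlx3, averaged 0.0140 FPKM in LPS and 0.0157 in WAT.

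The enzymes gave no shared change. Alpl (chr4:137741733-137796384, minus strand) had 17.6, 3.55, 115.7, 2.61, 3.63, 1.90, 18.5 and 0.678 FPKM in LPS 1 to LPS 8, against 1.99, 2.61, 3.53 and 5.79 FPKM in WAT 1 to WAT 4. LPS 3, LPS 7 and LPS 1 lay above all WAT libraries, and the other 5 tumours lay within or below the WAT range. Alpl averaged 20.5 ± 39.1 FPKM in LPS (SD, n = 8) and 3.48 ± 1.66 FPKM in WAT (SD, n = 4), and 6.93 ± 7.68 in LPS without LPS 3 (SD, n = 7). The log2 difference of 0.89 ± 0.93 (SE) did not pass the test (limma, adjusted p = 0.458), and it was 0.34 without LPS 3 (limma, adjusted p = 0.687). The 3 tumours with high Alpl also had the highest Pparg, which encodes the main transcription factor of adipocytes, at 82.2 FPKM in LPS 1, 94.2 in LPS 3 and 66.5 in LPS 7. Pparg ranged over 2.93 to 16.4 FPKM in the other tumours and 70.4 to 133.8 in WAT; this pairing was picked after the values were seen, and no test was made of it.

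Phex (chrX:157162075-157415312, minus strand) had 7.49, 0.438, 0.411, 0.287, 0.513, 0.333, 0.185 and 0.201 FPKM in LPS 1 to LPS 8, against 0.111, 0.172, 0.0842 and 0.258 FPKM in WAT 1 to WAT 4. Only LPS 1 was above 1 FPKM, and the other 7 tumours averaged 0.338 ± 0.123 (SD, n = 7) against 0.156 ± 0.0770 in WAT (SD, n = 4). Phex did not pass the filter; with no filter its log2 difference was 0.54 ± 0.45 (SE; limma, adjusted p = 0.432), where 28.9% of 27793 rows were called, 9.52% higher and 19.4% lower. The difference was 0.21 without LPS 1. Gm15172 and Gm25795 overlap Phex on the same strand, which counting by strand could not separate, and Gm23798 on the opposite strand.

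The acidic matrix proteins of chromosome 5 differed among themselves although their genes lie within 270 kb. Dmp1 (chr5:104202617-104214102, plus strand) had 2.51, 4.52, 0.529, 12.8, 7.29, 29.7, 5.45 and 6.47 FPKM in LPS 1 to LPS 8, against 0.0979, 0.0210, 0 and 0.0488 FPKM in WAT 1 to WAT 4. Every tumour was above every WAT library, with LPS 6 highest and LPS 3 lowest. Dmp1 rose by 2.72 ± 0.59 on the log2 scale (SE; limma, adjusted p = 0.00211), with 8.66 ± 9.24 FPKM in LPS (SD, n = 8) and 0.0419 ± 0.0423 FPKM in WAT (SD, n = 4). Without LPS 6 the LPS mean was 5.66 ± 3.93 FPKM (SD, n = 7). The WAT values equal at most about 7.49 fragments, in WAT 1.

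Spp1 (chr5:104435118-104441050, plus strand) had 1.07, 2.42, 1.23, 2.62, 113.0, 8.37, 3.54 and 4.34 FPKM in LPS 1 to LPS 8, against 0.506, 0.544, 0.533 and 0.584 FPKM in WAT 1 to WAT 4. All tumours were above all WAT libraries, and LPS 5 was far above the rest. Spp1 averaged 17.1 ± 38.8 FPKM in LPS (SD, n = 8) and 0.542 ± 0.0324 FPKM in WAT (SD, n = 4), a log2 difference of 1.94 ± 0.85 (SE) that missed the threshold (limma, adjusted p = 0.0794). Without LPS 5 the LPS mean was 3.37 ± 2.50 FPKM (SD, n = 7), and Spp1 then passed, at a log2 difference of 1.33 (limma, adjusted p = 0.00865). It also passed when libraries were weighted by their spread, at 1.66 (limma, adjusted p = 0.00644), and with a pseudocount of 0.1, at 2.81 (limma, adjusted p = 0.0298). Gm42793 overlaps Spp1 on the same strand, which counting by strand could not separate.

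Osteopontin is also made by macrophages. The macrophage markers summed to 109 to 375 FPKM in LPS, with LPS 5 at 321 and LPS 1 at 375, and to 126 to 208 in WAT. Of the list, 2 genes passed as higher, 1 as lower and 5 were not called. Of the 9 macrophage markers with a row, 4 were highest among the tumours in LPS 5 and the other 5 in LPS 1, the tumour with the lowest Spp1. Those that peaked in LPS 5, named after their values were seen, were Cd68 at 52.7 FPKM, Itgam at 22.7, Trem2 at 8.93 and Gpnmb at 5.91. Those that peaked in LPS 1 were Lyz2 at 166 FPKM, Aif1 at 63.2, Csf1r at 51.8, Mrc1 at 45.2 and Cd163 at 3.72. The part of these cells in the Spp1 level was not tested.

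Ibsp (chr5:104299171-104311469, plus strand), which lies between Dmp1 and Spp1, was listed at 0 in 5 LPS libraries and at 0.0577 FPKM in LPS 5, 0.0201 in LPS 7 and 0.253 in LPS 8. In WAT it was listed at 0 in 3 libraries and at 0.0229 FPKM in WAT 4. The highest of these values equals about 9.56 fragments. The end of Dmp1 is 85.1 kb from the start of Ibsp, and the end of Ibsp 124 kb from the start of Spp1. Of the other 2 genes of the cluster, Dspp, which encodes a dentin protein, had 0.0288 to 0.344 FPKM in LPS and 0 to 0.0197 in WAT, and Mepe, a matrix protein of osteocytes, 0 to 0.151 in LPS and 0 in WAT.

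**Figure D2:**
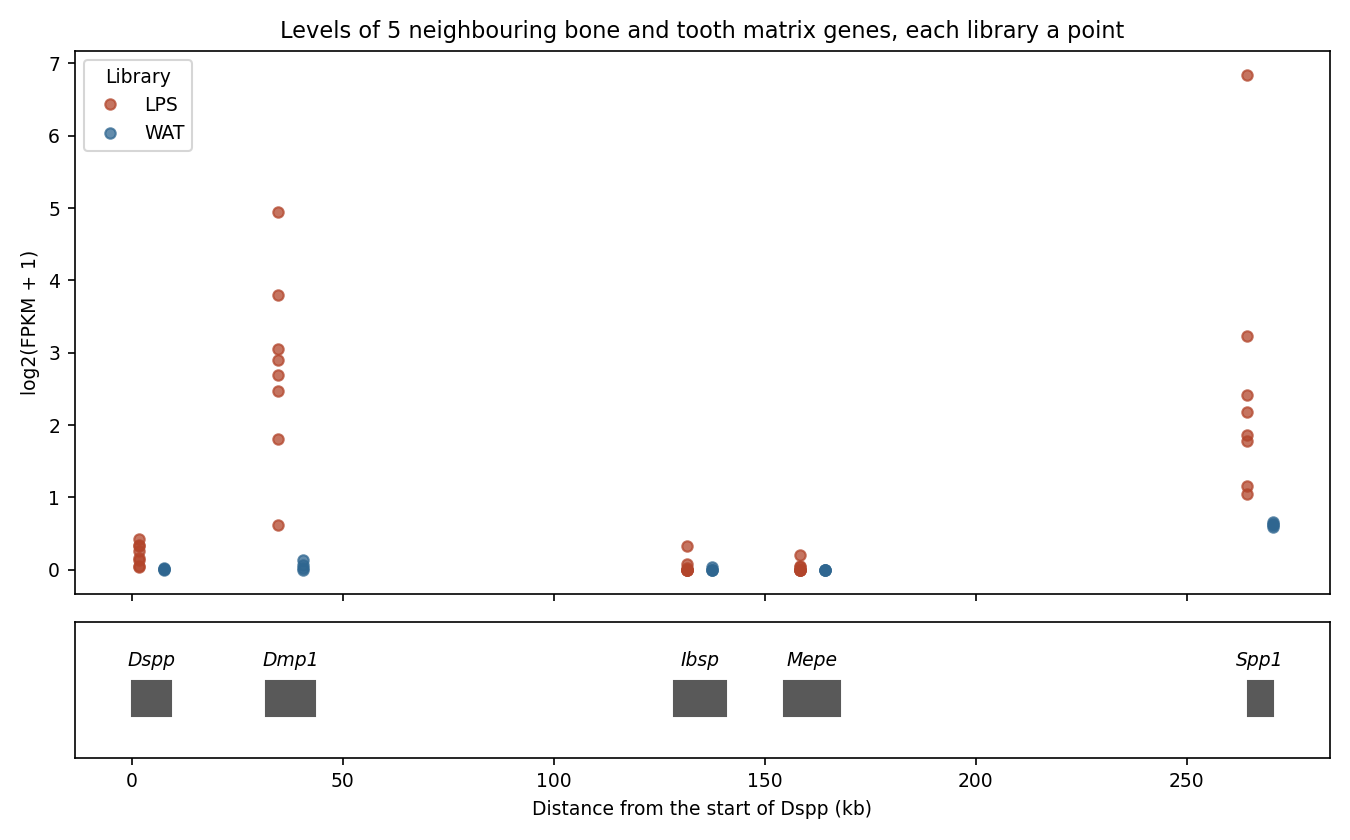
Level, as log2(FPKM + 1), of the 5 matrix protein genes of the chromosome 5 cluster in each library against the distance of the gene from the start of Dspp in kb, LPS and WAT libraries in separate colours. Dmp1 (8.66 FPKM on average in LPS) and Spp1 (17.1) stand above Dspp, Ibsp and Mepe, each below 0.35 FPKM in every library.

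Bglap and Sost were close to the detection limit in most libraries. Bglap (chr3:88383501-88384464, minus strand) had 0.370 FPKM in LPS 1, 0.193 in LPS 2 and 1.34 in LPS 8, and was listed at 0 in the other 5 tumours, against 0 in 3 WAT libraries and 0.361 FPKM in WAT 4. The transcript is short, at 440 bases, and the value in LPS 8 equals about 10.7 fragments. Bglap2 and Bglap3 match it at 98.6% and 96.1% of those bases, so counting could split reads between the copies and all 3 levels are uncertain. Bglap2 was listed at 0 in every library other than LPS 8, where it had 0.166 FPKM. Bglap3 was above 0 in 6 of 8 LPS libraries, at most 0.210 FPKM in LPS 5, and in 3 of 4 WAT libraries, at most 0.406 in WAT 3.

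Sost (chr11:101962458-101967015, minus strand) ranged over 0 to 0.0700 FPKM in LPS and 0 to 0.0413 FPKM in WAT, at most about 2.56 fragments. It was listed at 0 in 3 LPS and 2 WAT libraries, and no difference was detectable at this depth. With no filter on low values, the log2 differences were 0.05 ± 0.05 for Ibsp (SE; limma, adjusted p = 0.606), 0.13 ± 0.21 for Bglap (limma, adjusted p = 0.680) and 0.01 ± 0.02 for Sost (limma, adjusted p = 0.680). Without LPS 8 the differences were -0.0098 for Bglap and 0.0075 for Ibsp, and without LPS 3 that of Sost was 0.0044.

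Read tumour by tumour, the genes peaked in different libraries. Each tumour held 5 to 7 of the 10 genes at 1 FPKM or more, and each WAT library held 2, Runx2 and Alpl. LPS 1 was highest for Phex and lowest for Sp7 and Dlx5, LPS 2 highest for Sp7 and lowest for Runx2, and LPS 3 highest for Alpl and lowest for Dmp1. Runx2 peaked in LPS 4, Spp1 in LPS 5 and Dmp1 in LPS 6, while Dlx5, Ibsp and Bglap all peaked in LPS 8. LPS 7 held the top value of none of the 10.

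**Figure D3:**
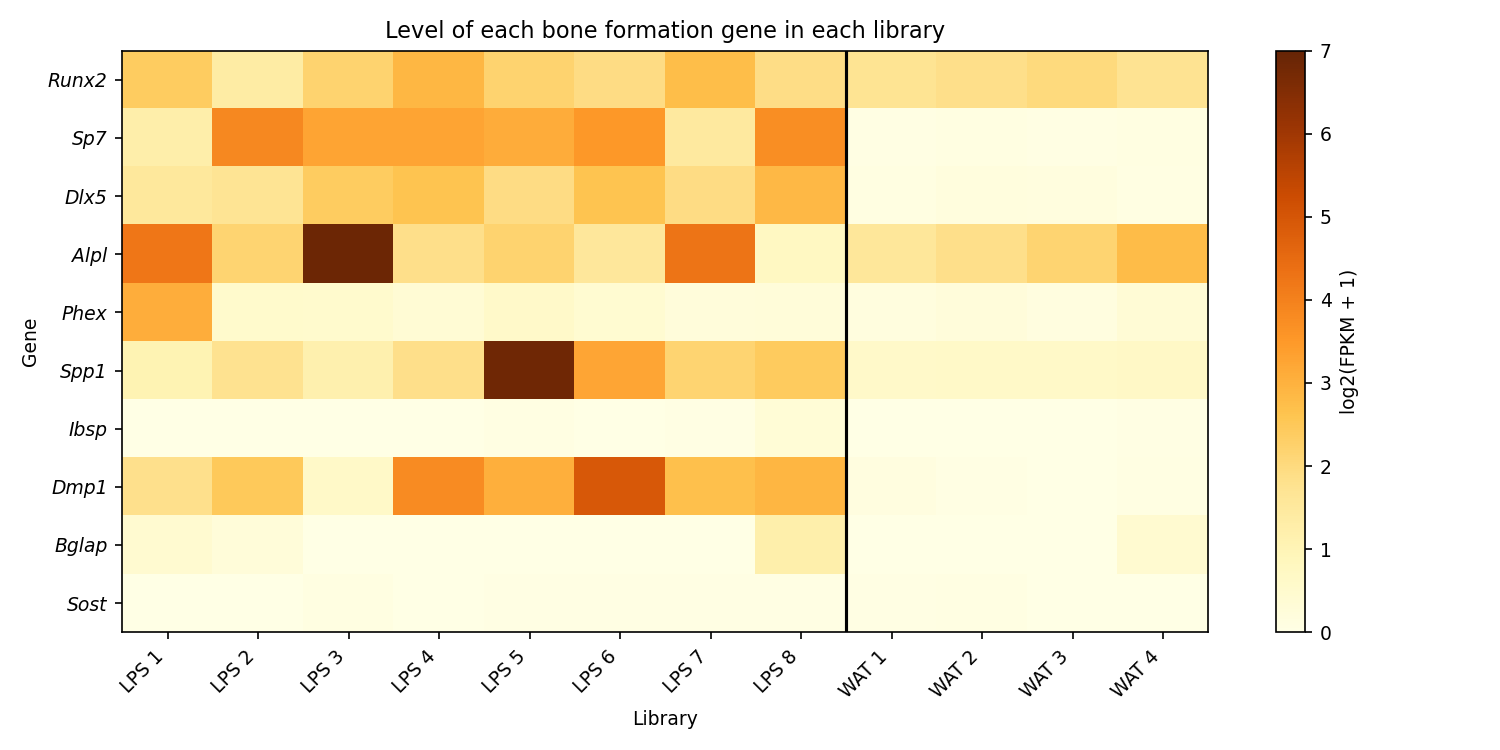
Level of the 10 bone formation genes (down the page) in LPS 1 to LPS 8 and, right of the black line, WAT 1 to WAT 4, with colour for log2(FPKM + 1). Sp7, Dlx5 and Dmp1 are darker in each tumour than in any WAT library, palest among tumours in LPS 1 for Sp7 (1.36 FPKM) and LPS 3 for Dmp1 (0.529 FPKM), Runx2 overlaps between the groups, and the darkest cells are Alpl in LPS 3 (115.7 FPKM) and Spp1 in LPS 5 (113.0 FPKM).

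The labels give each tumour an age, and a slope per month was fitted with limma over the 8 LPS libraries. Of 13280 rows, 0 passed (0%), and 228 (1.72%) had an unadjusted p below 0.05. Runx2 had 1.54 and 2.82 FPKM at 9 months, 3.57 and 2.74 at 10 months, 4.21, 3.62 and 5.72 at 11 months and 6.34 at 12 months. Its slope was 0.41 ± 0.11 log2 units per month (SE; unadjusted p = 0.00403, limma adjusted p = 1.00 over all rows), so it did not pass. Slopes were -0.48 ± 0.28 for Sp7, -0.03 ± 0.17 for Dlx5, -0.08 ± 0.41 for Dmp1, 0.14 ± 0.59 for Spp1 and 0.22 ± 0.63 for Alpl (SE). None of these slopes was larger than 2 SE.

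For each of the 6 tested genes, the 3 genes with the most similar pattern over the 8 tumours were sought among 12662 rows, by mean absolute distance between levels in SD units. Sp7 lay nearest to Slbp, then Snhg9 (0.186 SD) and Gm3470 (0.191 SD). Dlx5 lay nearest to Nr6a1 (0.152 SD), then Gm14335 and Edil3, and Dmp1 to Il13ra1 (0.191 SD), then A330021E22Rik and Elf4. Alpl lay nearest to Zfp503 and Mbnl3 (0.155 SD each), then Apobr, Spp1 to Nup153 (0.219 SD), then Gm10719 and Cstb, and Runx2 to Gm16301 (0.177 SD), then 5330438D12Rik and Insig2. Gm10719, like Spp1, was far highest in LPS 5, at 4619 FPKM. None of these 6 genes was among the nearest 3 of another. With 3 places among 12662 rows, that does not show that their patterns were unrelated. The 4 genes below the filter were not compared. The likeness rests on 8 points per gene and says nothing of function.

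Of 21 other osteoblast and osteocyte genes, 11 were tested: 2 rose, 4 fell and 5 were not called, with a median log2 difference of -0.06 against -0.05 over all rows tested. Ifitm5, an osteoblast membrane protein, rose by 0.67 (1.95 against 0.856 FPKM; limma, adjusted p = 0.00442) and Cbfb, the partner subunit of RUNX proteins, by 0.47 (33.8 against 24.3 FPKM; limma, adjusted p = 0.0142). Cbfb no longer passed without WAT 3 (adjusted p = 0.0520, limma) or without WAT 4 (adjusted p = 0.0672, limma), which left 1 gene of the list called higher in each case.

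The genes of type I collagen, the main protein of bone matrix and also of fat stroma, went the other way. Col1a1 ranged over 10.4 to 299.6 FPKM in LPS against 486 to 1166 in WAT, and fell by 3.68 ± 0.72 (SE; limma, adjusted p = 0.000986). Col1a2 averaged 129 ± 150 FPKM in LPS and 772 ± 253 in WAT, and fell by 3.69 ± 1.05 (SE; limma, adjusted p = 0.0117). Without WAT 1 and WAT 4 the difference was as large, at -3.78, but no longer passed (limma, adjusted p = 0.0814). Smpd3, a sphingomyelinase needed for mineralisation in mice, fell to 0.252 ± 0.0813 FPKM in LPS against 12.0 ± 3.12 in WAT (limma, adjusted p = 1.49e-09). Smpd3 passed the filter through the WAT libraries alone, so its lower level in LPS was partly built into passing. Pdpn, a surface protein of young osteocytes, fell to 0.800 ± 1.02 FPKM in LPS against 3.63 ± 0.172 in WAT (limma, adjusted p = 0.00161). Sparc (osteonectin) was the most abundant gene not called, at 1310 ± 488 FPKM in LPS and 984 ± 103 in WAT (limma, adjusted p = 0.277), and passed after quantile normalization (limma, adjusted p = 0.0197). The fibroblast and adipose progenitor markers, which share stromal sources with collagen, summed to 388 to 1741 FPKM in LPS and 1438 to 2395 in WAT. Most of that sum was Col3a1, itself a collagen gene, at 305 to 1625 FPKM in LPS and 979 to 1888 in WAT. The sum is therefore no measure of stromal cells apart from collagen. Of 7 tested genes of the list 6 were lower, against 27% of all rows tested. The part of these cells in the falls was not tested.

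Of 10 genes of phosphate, pyrophosphate and mineral inhibition, 5 were tested: 1 rose, 2 fell and 2 were not called (median 0.40). Phospho1 and Ank share their rows with other gene names and are in neither the counts nor the median. Their joined rows averaged 18.5 and 3.90 FPKM in LPS against 63.2 and 22.7 in WAT, both lower in LPS without overlap. Mgp, the matrix Gla protein that inhibits calcification, had 214, 470, 16.5, 2508, 775, 2064, 1109 and 1457 FPKM in LPS 1 to LPS 8, against 30.1, 31.2, 31.9 and 35.05 in WAT 1 to WAT 4. LPS 3 lay below all WAT libraries and the other 7 tumours above them. Mgp rose by 4.12 ± 1.07 (SE; limma, adjusted p = 0.00728). Without WAT 1 and WAT 4 the difference was as large, at 4.14, but no longer passed (limma, adjusted p = 0.0679). Nt5e, which makes adenosine from AMP at the cell surface, fell by 1.56 ± 0.12 (0.545 FPKM in LPS against 3.57 in WAT; limma, adjusted p = 3.95e-07). Nt5e passed the filter through the WAT libraries alone, so its lower level in LPS was partly built into passing. Slc20a2, a phosphate transporter, fell by 0.77 ± 0.17 (6.39 against 11.4 FPKM; limma, adjusted p = 0.00280). Without WAT 1 and WAT 4 the difference was -0.71 and no longer passed (limma, adjusted p = 0.0561). The other phosphate transporter, Slc20a1, had 26.4 ± 5.83 FPKM in LPS and 19.4 ± 2.67 in WAT and was not called (limma, adjusted p = 0.0662). It stayed so in 17 of 21 alternatives. Those in which it passed included the fit without LPS 8 (limma, adjusted p = 0.0278) and both rescalings.

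Bone morphogenetic proteins induce Runx2, Sp7 and Dlx5 in osteoblast precursors. Of 13 genes of this pathway, 8 were tested: 2 rose, 4 fell and 2 were not called (median -0.49). The receptor gene Bmpr1b averaged 5.31 ± 2.18 FPKM in LPS and 0.184 ± 0.0840 in WAT, without overlap, and rose by 2.34 ± 0.26 (SE; limma, adjusted p = 8.19e-06). Bmpr1b passed the filter through the LPS libraries alone, so its higher level there was partly built into passing. Bmpr2 rose by 0.70 ± 0.16 (29.2 against 17.2 FPKM; limma, adjusted p = 0.00296). The ligand genes Bmp6 and Bmp7 fell by 1.66 and 1.41, with 0.439 and 0.0899 FPKM in LPS against 3.54 and 1.90 in WAT (limma, adjusted p = 1.77e-05 and 1.51e-06). The genes of the antagonists Grem1 and Chrd fell by 1.38 and 1.16 (limma, adjusted p = 9.27e-07 and 4.91e-05). Bmp7, Grem1 and Chrd passed the filter through the WAT libraries alone, so their lower levels in LPS were partly built into passing. Bmpr1a, at 26.0 ± 7.72 FPKM in LPS and 19.7 ± 2.94 in WAT, was not called (limma, adjusted p = 0.254). It stayed so in 19 of 21 alternatives, and those in which it passed included the fit without LPS 5 (limma, adjusted p = 0.0374). Only 1 pathway gene was called lower when any single WAT library was left out, since genes expressed in WAT alone then drop below the filter of 4 libraries.

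**Figure D4:**
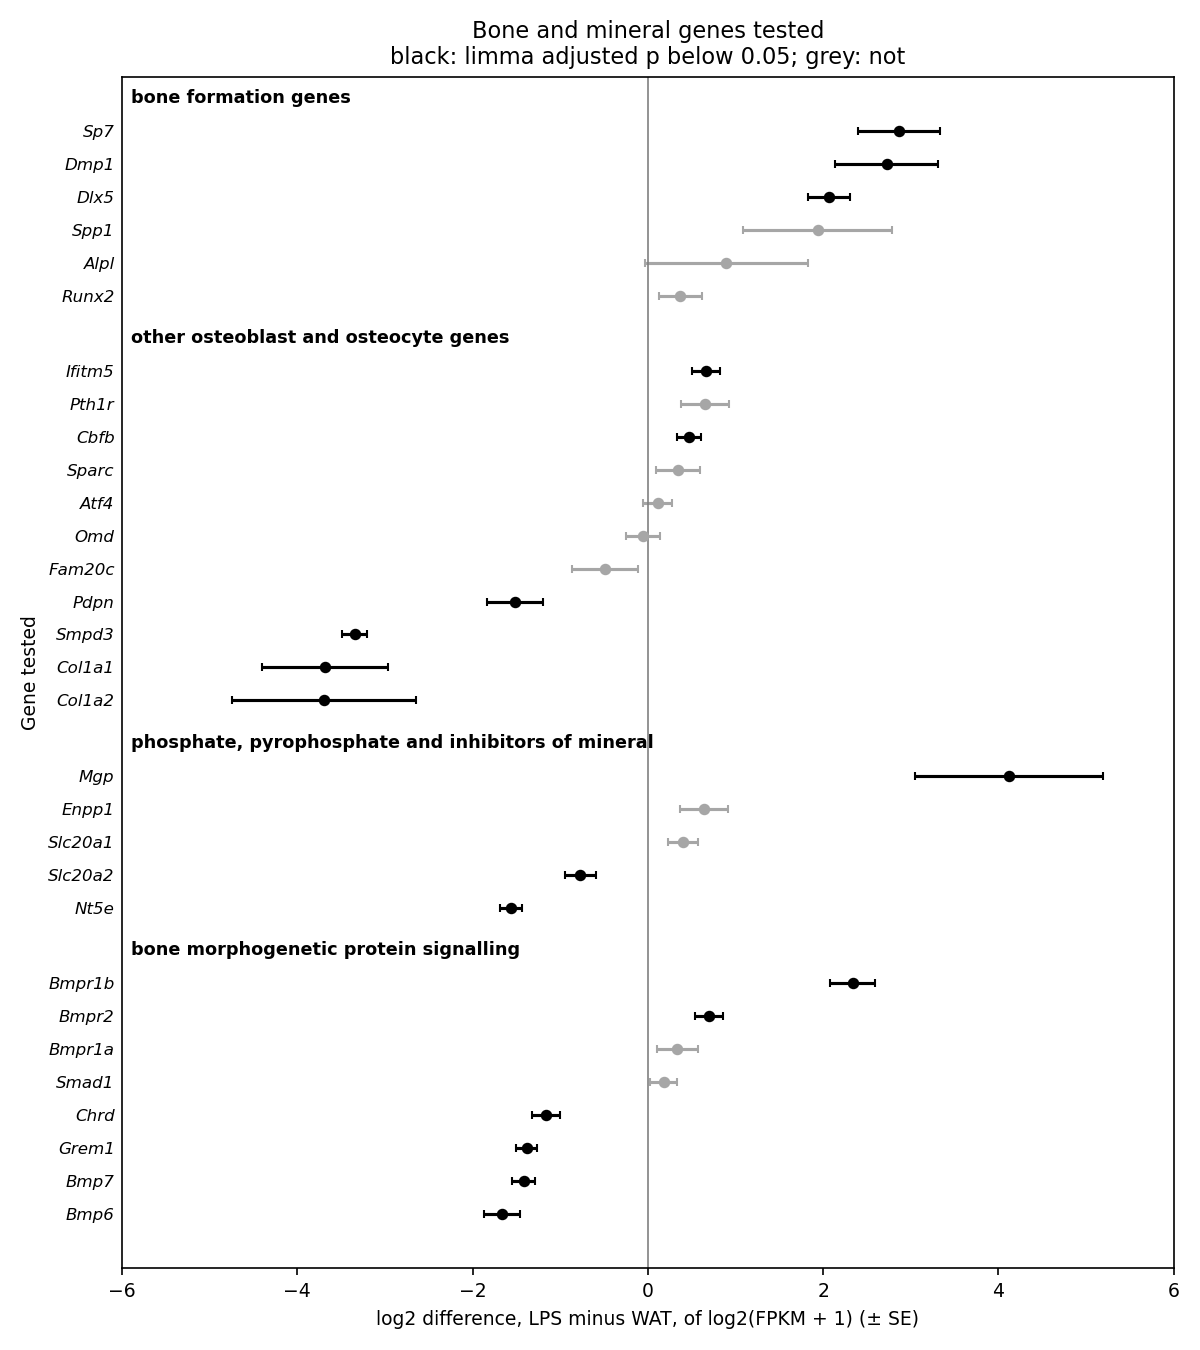
Log2 difference of LPS minus WAT on the log2(FPKM + 1) scale (horizontal axis), with bars of 1 SE, for the tested bone formation genes and the tested genes of the 3 other bone and mineral lists; black points passed the limma test. Sp7 (2.86), Dmp1 (2.72) and Dlx5 (2.07) lie right of 0, and Col1a1 and Col1a2 (both near -3.7) far left.

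Markers of other skeletal cells were mixed. Cartilage markers summed to 5.66 to 23.0 FPKM in LPS and 4.67 to 5.84 in WAT. Of 11 genes, 3 were tested: Sox9 rose, and Col10a1 and Chad (1.63 FPKM in LPS against 1.59 in WAT) were not called. Sox9, the cartilage transcription factor, rose by 1.88 ± 0.42 (4.75 ± 3.82 FPKM in LPS against 0.324 ± 0.178 in WAT; limma, adjusted p = 0.00239). Sox9 passed the filter through the LPS libraries alone, so its higher level there was partly built into passing. Col2a1 and Acan, the genes of the main cartilage matrix proteins, averaged 0.00901 and 0.0368 FPKM in LPS and 0.00342 and 0.0925 in WAT. Col10a1, a gene of hypertrophic cartilage, reached 18.8 FPKM in LPS 1, the tumour with the highest Phex, and was between 1.46 and 2.79 in the other tumours and between 2.23 and 3.26 in WAT.

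Osteoclast markers summed to 36.1 to 123 FPKM in LPS and 90.4 to 132 in WAT. Of 10 genes, 5 were tested: 1 rose, 2 fell and 2 were not called. Ctsk, the osteoclast protease that fibroblasts also make, rose by 1.51 ± 0.31 (41.8 against 13.2 FPKM; limma, adjusted p = 0.00146), and Acp5, encoding tartrate-resistant acid phosphatase, fell by 2.41 ± 0.47 (19.4 against 87.4 FPKM; limma, adjusted p = 0.00103). Nfatc1 fell by 1.17 (limma, adjusted p = 0.00182), and Mmp9 was not called at 3.96 ± 4.10 FPKM in LPS and 1.94 ± 0.740 in WAT. Tnfrsf11a was not called either, at 3.30 FPKM in LPS and 2.26 in WAT (limma, adjusted p = 0.134). Of the markers below the filter, Calcr, Dcstamp and Atp6v0d2 averaged 0.0150, 0.0304 and 0.0844 FPKM in LPS and 0.0236, 0.0303 and 0.0940 in WAT. Ocstamp averaged 0.319 FPKM in LPS and 0.105 in WAT, and Oscar 0.0382 in LPS and 0.136 in WAT. The part of pericyte, cartilage and osteoclast-marker cells in the levels of the bone formation genes was not tested.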

How the data were processed

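Stranded libraries were prepared from the frozen tissues after removal of ribosomal RNA, per the labels' protocols. The submitters' processing notes name build GRCm38 and, without their roles, Cuffdiff 2.2.1, Cufflinks 2.2.1, TopHat2 2.1.0, Bowtie2 and Trimmomatic. Any further scaling of values between libraries is not stated. The deposited FPKM values, 1 per row and library, are not counts, so no count test was run and depth is known only from the approximate value of 1 fragment. For each library, FPKM was multiplied by transcript length in 2154 single-transcript genes longer than 2000 bases (GENCODE M21), and the 5th percentile of the values above 0 was taken as that of 1 fragment.

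Values were tested as log2(FPKM + 1) with limma 3.58.1 in R 4.3.3 (trend and robust empirical Bayes, two-sided, Benjamini-Hochberg over all rows tested), 8 LPS against 4 WAT with no covariate, and as a slope on age within LPS. A row was tested where 4 or more libraries reached 1 FPKM. A gene of any list that passed through a single group owes part of its difference to passing. Fold sizes on this scale understate the change of low genes. Of the table's rows, 828 join several gene names and were tested, but were left out of the called counts, medians and summed levels of lists. The test was tried first on simulated data. Of the 10 genes, 7 have the same coordinates in the table, counted from 1, as in GENCODE M21; coordinates in the text are the table's.

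The 10 genes and all lists were chosen with earlier results of these data known. From the osteoblast list 1 gene was left out of all counts and is not reported here. Named from each bone, mineral, cartilage and osteoclast list were the 2 largest called differences each way and the most abundant gene not called. The rule also picked genes of the other marker lists, which are given instead by counts and summed levels. Named in addition, with their values known, were Smpd3, Pdpn, Grem1, Chrd, Tnfrsf11a, Phospho1, Ank, Dlx3, Dlx6, Bglap2, Bglap3, Col3a1 and Chad. So were macrophage markers, genes of the chromosome 5 cluster and low marker genes. Alternatives were a pseudocount of 0.1, no filter or a filter of 8 libraries, quantile and median ratio scaling, array weights and a replicate block. Others were an exact permutation test, each library left out, and WAT 1 and WAT 4 left out. Promoter windows are RefSeq's, on GRCm38.p6, and were matched by symbol for 8 of 10 genes.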

Additional observations from a re-analysis of the deposited data

Results flagged for a closer look

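Levels of the 10 genes and of the genes named from the related lists were examined in 68 sets of 4 or 8 libraries. In 16 of them 1 library lay far from the rest by Dixon's test on FPKM. The rate of about 1 in 20 sets by chance holds for normally distributed values. FPKM are skewed, so the 16 are not read as an excess over chance. Among the bone formation genes these were Alpl in LPS 3 (115.7 FPKM), Phex in LPS 1 (7.49), Spp1 in LPS 5 (113.0), Dmp1 in LPS 6 (29.7), and Ibsp and Bglap in LPS 8 (0.253 and 1.34). In WAT 4, Ibsp (0.0229) and Bglap (0.361) were the only value above 0, each worth fewer than 3 fragments. Any value above 0 would have been set apart there.

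Among other genes, the library set apart was LPS 5 for Col1a1 (299.6 FPKM), Pdpn (3.15) and Grem1 (0.0329), LPS 3 for Sparc (2374), LPS 1 for Col10a1 (18.8) and LPS 7 for Acp5 (51.8). In WAT it was WAT 3 for Bmp6 (5.17) and WAT 2 for Slc20a1 (23.4).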

How the results depend on the processing

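Under the alternatives run, 122 of 125 values of the tested bone formation genes kept their direction and their side of the threshold; the others were the Spp1 values below. Leaving out single libraries gave adjusted p between 2.41e-05 and 0.00138 for Sp7, 7.49e-06 and 0.00014 for Dlx5, and 0.000191 and 0.00855 for Dmp1. Spp1 passed with array weights (1.66), a pseudocount of 0.1 (2.81) and without LPS 5 (1.33), with a range over single libraries left out of 1.33 to 2.15. Without WAT 1 and WAT 4, the libraries high in muscle markers, 1402 rows were called higher and 2114 lower, against 2806 and 4007; among genes named, Cbfb (0.35; adjusted p = 0.198, limma), Col1a2 (-3.78), Mgp (4.14) and Slc20a2 (-0.71) no longer passed, with differences near their full values other than for Cbfb (0.47). For other osteoblast genes, 4 rose after quantile normalization and 1 without WAT 1 and WAT 4 (1 to 3 over single libraries left out, with 1 without WAT 3 or WAT 4), and 2 fell under a filter of 8 libraries and 2 without WAT 1 and WAT 4. For the mineral list, 3 rose with array weights, 2 with median ratio scaling, 3 with quantile normalization and 0 without WAT 1 and WAT 4 (1 to 2 over single libraries left out, with 2 without LPS 3 or LPS 8), while 1 fell under a filter of 8 and 0 without WAT 1 and WAT 4 (1 to 2, with 1 without any single WAT library). For bone morphogenetic proteins, 0 fell under a filter of 8 and 0 without WAT 1 and WAT 4 (1 to 4). Fewer WAT libraries leave fewer genes tested; other causes were not tested. Col10a1, not called, turned to -0.026 with a pseudocount of 0.1 and ranged over -0.30 to 0.13. With that pseudocount the untested differences were 1.29 for Phex, 0.40 for Bglap, 0.27 for Ibsp and 0.11 for Sost. With single libraries left out they ranged over 0.21 to 0.61 for Phex, -0.0098 to 0.24 for Bglap, 0.0075 to 0.05 for Ibsp and 0.0044 to 0.03 for Sost. Age slopes ranged over -0.21 to 0.07 for Dlx5 (0.03 without LPS 1, 0.073 without LPS 6 and 0.01 without LPS 8), -0.10 to 0.79 for Alpl (-0.10 without LPS 6), -0.26 to 0.49 for Spp1 (-0.03 without LPS 2 and -0.26 without LPS 5) and -0.51 to 0.485 for Dmp1 (0.01 without LPS 1 and 0.485 without LPS 6). Scaling moved the median log2 difference of all rows to 0.10 (quantile) or 0.01 (median ratio), against -0.05.

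With the replicate number as a block, 2775 rows were called higher and 3976 lower. Deviations of same-numbered libraries correlated at -0.02, 0.02, 0.09 and 0.03. These values show no pairing by number but cannot exclude one. Depth limits Ibsp, Bglap and Sost, and the WAT levels of Sp7, Dlx5 and Dmp1.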
